A study of Homo sapiens with 2 samples.

Results

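The regulators described here are 10 RNA-binding proteins that set splicing choices by cell state: ESRP1, ESRP2, RBFOX2, QKI, MBNL1, MBNL2, MBNL3, CELF1, PTBP1 and PTBP2. They were found by gene symbol among the 33629 genes named in either library, and all 10 were listed in both libraries. Events in loci that name several genes were given to the gene whose exon boundaries in GENCODE 29 they used. The study sequenced poly-A RNA of LM3, an established human hepatocellular carcinoma line, in 2 libraries. One was from wild-type cells, and the other was labelled as an NCOA5 knockout. How the knockout was made, and whether the line was 1 clone, is not stated here. NCOA5, a coregulator of nuclear receptors, had 20.03 FPKM in wild type and 25.4 in the library labelled as its knockout, a log2 ratio of 0.33. FPKM is a fragment count scaled to transcript length and library depth. Its RNA was therefore not lower where the label says it was knocked out. Protein was not measured, and that library is called knockout-labelled throughout.

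Splicing regulators of this kind bind short motifs beside an exon and raise or lower its inclusion, depending on where they bind. ESRP1 and ESRP2 set epithelial splicing, while RBFOX2 and QKI act on many exons that switch when epithelial cells turn mesenchymal. MBNL proteins and CELF1 act on shared exons in opposite directions during muscle and heart development. PTBP1 represses neuronal exons in most cells, and its paralogue PTBP2 takes over in developing neurons. Many of these genes also splice their own transcripts or those of their paralogues.

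With 1 library per genotype there was no replicate spread, so no test was possible. Fewer cells of a type and less RNA per cell cannot be told apart in such bulk samples. Differences were read by size alone, at 2-fold for the level of a gene and at 10 percentage points for the share of a form. The level of a gene is the larger of the sum over its start events and the sum over its end events, in FPKM, which is per length. Log2 ratios are of FPKM + 1, knockout-labelled over wild type, and understate the change of low genes. All coordinates are of hg38. An exact 0 can be a failed estimate, since TIA1, a splicing factor that most cells use, was listed at 0 in both libraries. No read counts are given, which leaves the depth and the counting error unknown. Hepatocyte or liver tumour markers were led by KRT8, at 2094 FPKM in wild-type and 2217 in knockout-labelled cells. In that list of 12 genes, 7 reached 1 FPKM, HNF4A stood at 17.5 and 17.4 FPKM, ALB at 1.41 and 2.92, and GPC3 was listed at 0 in both. AFP, at 8.80 and 6.48 FPKM, and TTR, at 0.942 and 0.336, were lower in knockout-labelled cells. FGA, at 3.15 and 6.66 FPKM, and FGB, at 1.37 and 4.73, were higher there. APOA1, APOB and SERPINA1 were under 1 FPKM in both libraries.

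None of the 10 regulators passed 2-fold. Of the 8 that reached 1 FPKM in either library and were above 0 in both, 1 had a log2 ratio above 0 and 7 had one below 0. Their median log2 ratio was -0.12, beside 0.01 over the 10442 genes that met the same conditions, of which 48.5% lay below 0. Among those genes 338 passed 2-fold, or 3.24%, with 1.21% higher and 2.03% lower in knockout-labelled cells. A count of 0 among 8 is near that background. In wild type the order of levels was PTBP1, MBNL1, CELF1, QKI, RBFOX2, MBNL2, PTBP2 and ESRP2. In the knockout-labelled library QKI stood above CELF1 and ESRP2 above PTBP2, while PTBP2 stood below MBNL2 in both libraries. With no replicates, whether neighbours in these orders differ beyond their spread cannot be said.

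**Figure D1:**
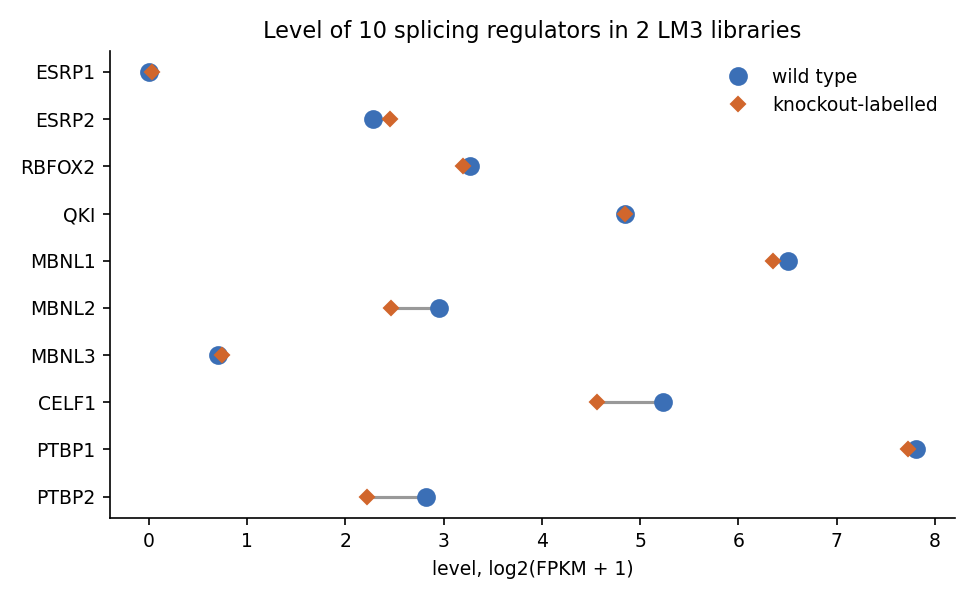
Level of each of the 10 regulators as log2(FPKM + 1), with 1 point for the wild-type library and 1 for the knockout-labelled library. The points of a gene lie close together for PTBP1, at 223 and 210.3 FPKM, and farther apart for CELF1, at 36.7 and 22.6 FPKM.

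ESRP1, the main driver of epithelial splicing, was listed at 0 in the wild-type library, against 0.0229 FPKM in the knockout-labelled one, so no fold is given. Its paralogue ESRP2 had 3.86 FPKM in wild-type and 4.50 in knockout-labelled cells, a log2 ratio of 0.18. A ratio at least as large in size was found in 53.4% of the tested genes. ESRP2 was the only regulator measured whose log2 ratio was above 0, and its difference is within the 2-fold limit. Its whole level came from different start events in the 2 libraries. In wild type the start lay at chr16:68235848-68236132 with 3.86 FPKM, and in the knockout-labelled library it lay at chr16:68237935-68238102 with 4.50 FPKM, on the minus strand of hg38. These starts are 1970 bases apart, and each was listed at 0 in the other library. An exon at chr16:68235848-68235879, which lies within the wild-type start, had 4.50 FPKM in the knockout-labelled library and 0 in wild type. The region of the wild-type start was thus also used in the knockout-labelled library, as an exon joined to the other start. Whether the starts truly differ was not tested. End events of ESRP2 summed to 4.50 FPKM in knockout-labelled cells, and none above 0 was listed for wild type.

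In the list of 8 markers of the epithelial state, in which ESRP genes are active, levels were low apart from keratin 19. The keratins KRT8 and KRT18 were counted in the liver list instead, with KRT18 at 831 FPKM in wild-type and 846 in knockout-labelled cells. Of the 8 epithelial markers 3 reached 1 FPKM. The summed level of the 8 was 258 FPKM in wild-type and 252 in knockout-labelled cells, of which KRT19 alone had 253 and 246. CDH1, which encodes E-cadherin, stood at 2.25 and 3.11 FPKM. CLDN4, OVOL1 and OVOL2 were listed at 0 in both libraries. Of 8 mesenchymal markers 7 reached 1 FPKM, and their sum was 987 FPKM in wild-type and 795 in knockout-labelled cells, most of it FN1 at 934 and 745. ZEB1, a transcription factor that represses epithelial genes, stood at 7.86 and 4.98 FPKM. CDH2, at 33.9 and 31.9 FPKM, and ZEB2, at 1.63 and 1.30, were also lower in knockout-labelled cells. VIM at 6.19 and 6.32 FPKM, SNAI2 at 2.86 and 4.13 and SPARC at 0.554 and 1.15 were higher there. TWIST1 was listed at 0 in both libraries. Summed over other cell types, fibroblast markers had 14.8 and 29.4 FPKM, endothelial markers 2.81 and 6.45, and leukocyte markers 1.78 and 2.30. LUM made up most of the fibroblast sum in both libraries. It was higher in knockout-labelled cells, as were COL1A2 and DCN, while COL1A1 and PDGFRB were lower. Among the endothelial markers KDR alone was higher there, and PECAM1, CDH5 and VWF were lower. Among the leukocyte markers LYZ and PTPRC were higher and CD74 was lower. Whether marker levels bear on those of the regulators was not tested.

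RBFOX2, which binds UGCAUG motifs, had 8.63 FPKM in wild-type and 8.20 in knockout-labelled cells, a log2 ratio of -0.07. Its alternative exons lie on the minus strand of chromosome 22 in hg38. The 40-base exon at chr22:35756105-35756144 and the 93-base exon at chr22:35768257-35768349 are shown because their forms carry the differences within RBFOX2. Both are whole coding exons in GENCODE 29, whose GRCh38 transcripts gave the sequences printed here, and the 43-base exon at chr22:35752613-35752655 is an alternative to the 40-base exon.
RBFOX2 40-base exon: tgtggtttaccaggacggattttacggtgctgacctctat
RBFOX2 43-base exon: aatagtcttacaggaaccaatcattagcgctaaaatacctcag
RBFOX2 93-base exon: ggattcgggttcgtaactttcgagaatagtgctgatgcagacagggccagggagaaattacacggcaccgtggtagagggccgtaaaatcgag

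The form with the 40-base exon had 6.79 FPKM in wild-type and 5.85 in knockout-labelled cells. The form without it had 1.84 and 2.35 FPKM. Its share was therefore 78.7% in wild-type and 71.3% in knockout-labelled cells, a difference of -7.35 percentage points, which is within the 10-point limit. The 43-base exon, which is used mainly in muscle, was listed at 0 FPKM in both libraries. Start events gave the same values as these forms: the start at chr22:36028240-36028425 had 6.79 and 5.85 FPKM, and the start at chr22:35840192-35840587 had 1.84 and 2.35. The starts are 187838 bases apart, and the form with the 40-base exon had the values of the upstream one.

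The 93-base exon encodes part of the RNA recognition motif, and its skipping is known to give a protein that binds RNA poorly. In wild type all 8.63 FPKM of RBFOX2 were joined to this exon, and no form without it was listed. In the knockout-labelled library 5.85 FPKM were joined to it and 2.35 FPKM lacked it, which is 28.7% of the gene. That value of 2.35 FPKM is also the value of the form without the 40-base exon. As a share of the gene, the form joined to the 93-base exon differed by -28.7 points, which is past the 10-point limit. The skip of the 93-base exon was listed in 1 library only and was singled out after its values were seen, so that pair is not among those compared below.

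QKI, which binds ACUAAC-like motifs and also promotes circular RNAs, had 27.8 FPKM in wild-type and 27.7 in knockout-labelled cells. Its log2 ratio of -0.00 was the smallest in size of the 8 regulators, and 99.4% of tested genes had one at least as large. QKI has 2 start events above 0, on the plus strand of chromosome 6. The upstream start, at chr6:163414000-163415335, had 6.62 FPKM in wild-type and 5.73 in knockout-labelled cells, or 23.8% and 20.7% of the gene. The downstream start, at chr6:163455216-163455421, had 21.1 and 22.0 FPKM. A form with an exon of 850 bases, at chr6:163565946-163566795, had the values of the upstream start, and the form with 775 fewer bases had those of the downstream start. The difference in share was -3.18 points. QKI and RBFOX2 together had 36.4 FPKM in wild-type and 35.9 in knockout-labelled cells.

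MBNL proteins, which bind YGCY motifs, had a summed level of 97.3 FPKM in wild-type and 85.7 in knockout-labelled cells. MBNL1 made up 92.4% of it in wild-type and 93.9% in knockout-labelled cells. MBNL1 had 89.9 and 80.5 FPKM, or a log2 ratio of -0.16. MBNL2 had 6.75 and 4.54 FPKM, or a log2 ratio of -0.48 that was equalled or passed in size by 16.1% of tested genes. MBNL3 stood at 0.631 and 0.679 FPKM, under the 1 FPKM minimum. All 3 genes have a 36-base alternative exon, and MBNL1 and MBNL2 also share lengths of 54 and 95 bases. These exons are shown to let their sequences be compared. The MBNL1 exons lie on the plus strand of chromosome 3 at chr3:152446704-152446757, chr3:152455542-152455577 and chr3:152456267-152456361. Those of MBNL2 lie on the plus strand of chromosome 13 at chr13:97356796-97356849, chr13:97365136-97365171 and chr13:97366459-97366553, and the MBNL3 exon lies on the minus strand of chromosome X at chrX:132384663-132384698. Capitals mark bases that differ from the MBNL1 exon of the same length.
MBNL1 54-base exon: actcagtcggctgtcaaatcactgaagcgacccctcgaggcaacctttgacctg
MBNL2 54-base exon: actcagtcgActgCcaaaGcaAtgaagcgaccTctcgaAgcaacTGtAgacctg
MBNL1 36-base exon: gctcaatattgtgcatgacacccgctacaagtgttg
MBNL2 36-base exon: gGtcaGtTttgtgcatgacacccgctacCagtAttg
MBNL3 36-base exon: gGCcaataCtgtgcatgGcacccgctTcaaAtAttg
MBNL1 95-base exon: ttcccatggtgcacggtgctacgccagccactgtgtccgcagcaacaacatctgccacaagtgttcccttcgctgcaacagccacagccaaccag
MBNL2 95-base exon: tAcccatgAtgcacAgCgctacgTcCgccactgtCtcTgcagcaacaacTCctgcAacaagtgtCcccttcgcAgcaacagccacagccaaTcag

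The MBNL2 exons differ from those of MBNL1 at 9 bases of 54, 5 of 36 and 14 of 95, an identity of 83.3%, 86.1% and 85.3%. The 36-base exon of MBNL3 differs at 7 bases, an identity of 80.6%. Lengths of 54 and 36 bases keep the reading frame, while 95 bases leave a remainder of 2.

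In MBNL1 the 54-base exon, which favours nuclear localization and is skipped when MBNL protein is plentiful, was listed at 0 in both libraries. The form that skips it had 89.9 FPKM in wild-type and 80.5 in knockout-labelled cells, the whole level of the gene. Forms of the 36-base and 95-base exons split that level in 3. Transcripts with both exons had 49.5 FPKM in wild-type and 45.6 in knockout-labelled cells, or 55.0% and 56.6% of MBNL1. Those with the 36-base exon alone had 22.4 and 18.4 FPKM, or 24.9% and 22.9%. Those with the 95-base exon alone had 18.0 and 16.5 FPKM, or 20.01% and 20.5%. Each share moved by little over 2 points or less. Against the form with the 95-base exon alone, the 36-base exon had a share of 73.3% and 73.4%, a difference of 0.09 points. The matching share of the 95-base exon was 68.8% and 71.2%, a difference of 2.37 points.

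MBNL1 has 2 start events above 0, which are 31365 bases apart. The upstream start, at chr3:152268040-152269092, had 67.5 FPKM in wild-type and 62.1 in knockout-labelled cells, or 75.1% and 77.1% of the gene. The downstream start, at chr3:152299405-152300367, had 22.4 and 18.4 FPKM, the same values as the form with the 36-base exon alone.

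In MBNL2 the same exons were listed differently in the 2 libraries. The 54-base exon was listed at 0 in the wild-type library, against 1.31 FPKM in knockout-labelled cells, 28.9% of the gene. The 36-base exon was listed at 0 in the wild-type library, against 1.01 FPKM, or 22.3% of the gene, in the knockout-labelled library. The form with neither the 36-base nor the 95-base exon had 5.36 FPKM in wild-type and 2.22 in knockout-labelled cells, or 79.3% and 48.9%. The 95-base exon had 1.40 and 1.31 FPKM, or 20.7% and 28.9%. In the knockout-labelled library it had the same value as the 54-base exon, so these are not separate differences. In wild type it had the value of a start at chr13:97141843-97141907, which was not listed in the knockout-labelled library. The start at chr13:97222296-97222531 had 5.36 FPKM in wild-type and 4.54 in knockout-labelled cells. MBNL2 totalled 4.54 FPKM in the knockout-labelled library, under the 5 FPKM minimum, so no share of it was compared under the size rule. In MBNL3 the form with the 36-base exon had 0.263 FPKM in wild-type and 0.465 in knockout-labelled cells, and the form without it had 0.367 and 0.214. The plot of the forms of 5 regulators shows MBNL1 split in nearly the same proportions in both libraries.

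**Figure D2:**
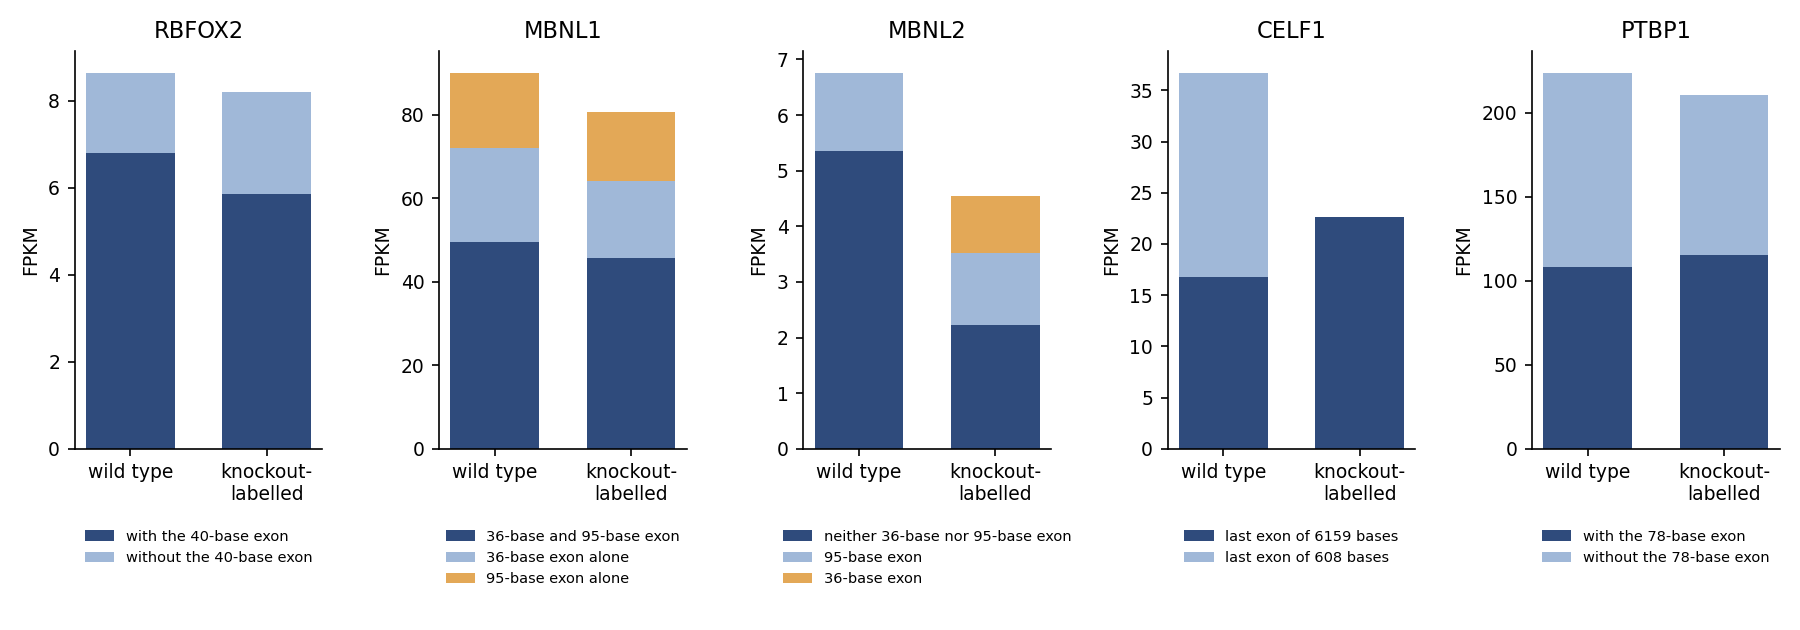
FPKM of the transcript forms of RBFOX2, MBNL1, MBNL2, CELF1 and PTBP1 in each library, stacked to the level of the gene, with a separate axis from 0 for each gene. The MBNL1 form with both exons made up 55.0% in wild-type and 56.6% in knockout-labelled cells, and the CELF1 last exon of 608 bases had 19.9 FPKM in wild type and is listed at 0 in the other library.

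CELF1, which binds GU-rich sequences and often opposes MBNL proteins, had the largest log2 ratio in size among the 8 regulators measured, on the scale of FPKM + 1. With a pseudocount of 0.1 FPKM, PTBP2 stood at -0.71 and CELF1 at -0.69. CELF1 had 36.7 FPKM in wild-type and 22.6 in knockout-labelled cells, a log2 ratio of -0.67, which is short of 2-fold. A ratio at least as large in size was found in 8.77% of tested genes. Its 2 last exons differed in opposite directions. They are on the minus strand of chromosome 11. The last exon of 6159 bases, at chr11:47465944-47472102, had 16.7 FPKM in wild-type and 22.6 in knockout-labelled cells. The last exon of 608 bases, at chr11:47468284-47468891, had 19.9 FPKM in wild type and was listed at 0 in the knockout-labelled library. The share of the longer last exon was 45.7% and 100%, a difference of 54.3 points. The shorter last exon lies wholly within the span of the longer one, and how fragments were divided between them is not given. Last exons are not among the pairs compared below, and no share over all genes was computed for them. Start events above 0 were listed for CELF1 in wild type only, at chr11:47552992-47553268 with 28.8 FPKM, so its level rests on end events in both libraries. Its exon of 76 bases at chr11:47478877-47478952 had the whole level of the gene, 36.7 and 22.6 FPKM.

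PTBP1, the polypyrimidine tract binding protein, was the highest of the 10 regulators, at 223 FPKM in wild-type and 210.3 in knockout-labelled cells, a log2 ratio of -0.09. PTBP2 had 6.08 and 3.68 FPKM, or a log2 ratio of -0.60, and 11.03% of tested genes had one at least as large in size. PTBP1 was 36.7 times PTBP2 in wild-type and 57.2 times in knockout-labelled cells, per length. Their exons are shown because both genes hold a 34-base exon whose skipping shifts the reading frame, and PTBP1 has a 78-base exon that alters its repressor activity. The PTBP1 exons lie on the plus strand of chromosome 19 at chr19:805492-805569 and chr19:807869-807902, and the PTBP2 exon lies on the plus strand of chromosome 1 at chr1:96806419-96806452. Capitals mark the 21 bases absent from a shorter 57-base form of the 78-base exon and, in PTBP2, the 9 bases that differ from PTBP1, an identity of 73.5%.
PTBP1 78-base exon: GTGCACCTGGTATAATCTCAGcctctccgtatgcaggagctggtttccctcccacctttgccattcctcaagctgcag
PTBP1 34-base exon: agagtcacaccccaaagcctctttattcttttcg
PTBP2 34-base exon: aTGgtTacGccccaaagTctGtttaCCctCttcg

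The 34-base exon was in every transcript listed of both genes. It had 223 FPKM in wild-type and 210.3 in knockout-labelled cells in PTBP1, and 6.08 and 3.68 FPKM in PTBP2. Its skipping in PTBP1 is the known autoregulatory switch, and its skipping in PTBP2 is the exon choice that PTBP1 is known to promote. The skipped forms, which are known targets of nonsense-mediated decay, were listed at 0 in both libraries and both genes.

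The form of PTBP1 without the 78-base exon is known as the weaker repressor of neuronal exons. The form with the exon had 108 FPKM in wild-type and 115 in knockout-labelled cells, and the form without it had 115 and 95.2 FPKM. The share was 48.5% and 54.7%, a difference of 6.22 points, within the 10-point limit. As an alternative exon end and as a skipped exon, the 57-base form was listed at 0 in both libraries. Multi-exon events that contain it and start at chr19:803561 were listed at 108 and 115 FPKM, the values of the same events with the 78-base exon. Other multi-exon events that contain it, such as that at chr19:804292-808452, were listed at 0 in both libraries. PTBP1 also has 2 start events, 2331 bases apart. The upstream start, at chr19:797075-797505, had 115 FPKM in wild-type and 127 in knockout-labelled cells, or 51.5% and 60.5%. The downstream start, at chr19:799406-799443, had 108 and 83.2 FPKM, or 48.5% and 39.5%. In wild type the values of the 2 starts equalled those of the forms without and with the exon, and in the knockout-labelled library they did not. PTBP2 has 2 forms of an exon at chr1:96804785-96804939. The form of 155 bases had 3.76 FPKM in wild-type and 1.58 in knockout-labelled cells, and the form with 15 fewer bases had 2.32 and 2.10. The longer form held 61.8% and 42.96%, but PTBP2 was under the 5 FPKM minimum in the knockout-labelled library.

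Over all 10 genes 90 pairs of forms were listed in either library: skipped exons, multi-exon skips, alternative exon ends and retained introns. Both forms together reached 5 FPKM in both libraries for 38 pairs, 14 of PTBP1, 13 of MBNL1, 5 of QKI, 4 of RBFOX2 and 2 of CELF1. None of the 38 differed by 10 points, beside 9.4% of all 22542 pairs compared in the same way. In 25 of the 38 pairs the longer or included form was the only one above 0 in both libraries, and in 8 the other form was. A pair with 1 form at 0 in both libraries has no difference by construction. The other 5 pairs had both forms above 0 in both libraries, and their differences ran from -7.35 points for the RBFOX2 40-base exon to 6.22 points for the PTBP1 78-base exon. Among all 2152 such pairs 32% differed by 10 points or more, and 56.9% lay within the largest difference of the 5. Pairs of a gene share transcripts, so they are not replicates.

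**Figure D3:**
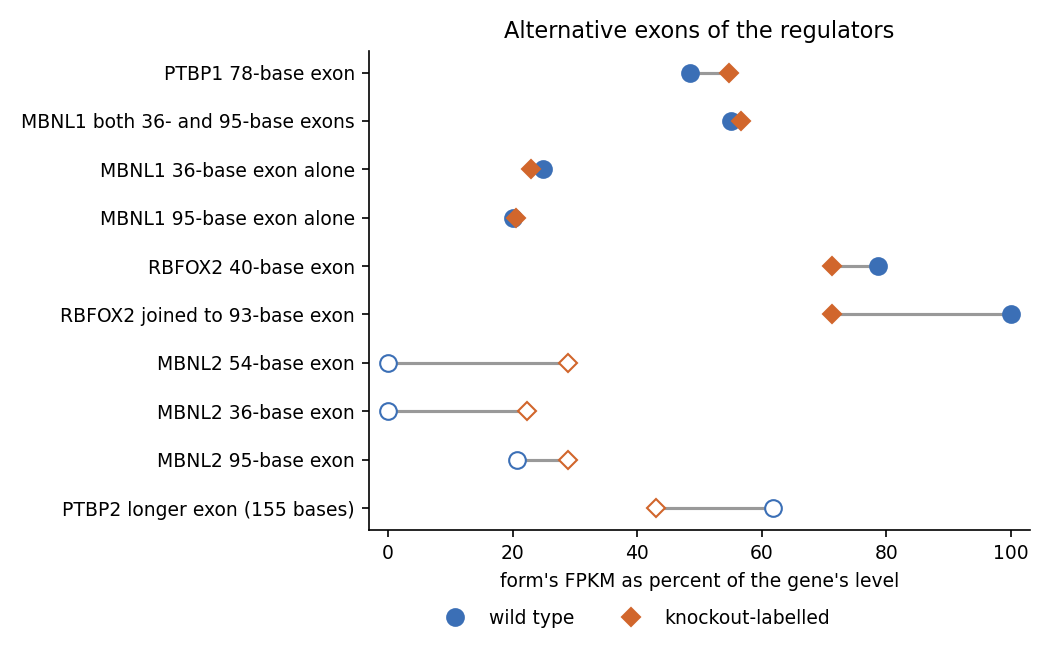
FPKM of each form as a percent of the level of its gene, for alternative exons of the regulators, with 1 point for each library. Hollow points mark MBNL2 and PTBP2, which had under 5 FPKM in the knockout-labelled library; the PTBP1 78-base exon stood at 48.5% and 54.7%.

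**Figure D4:**
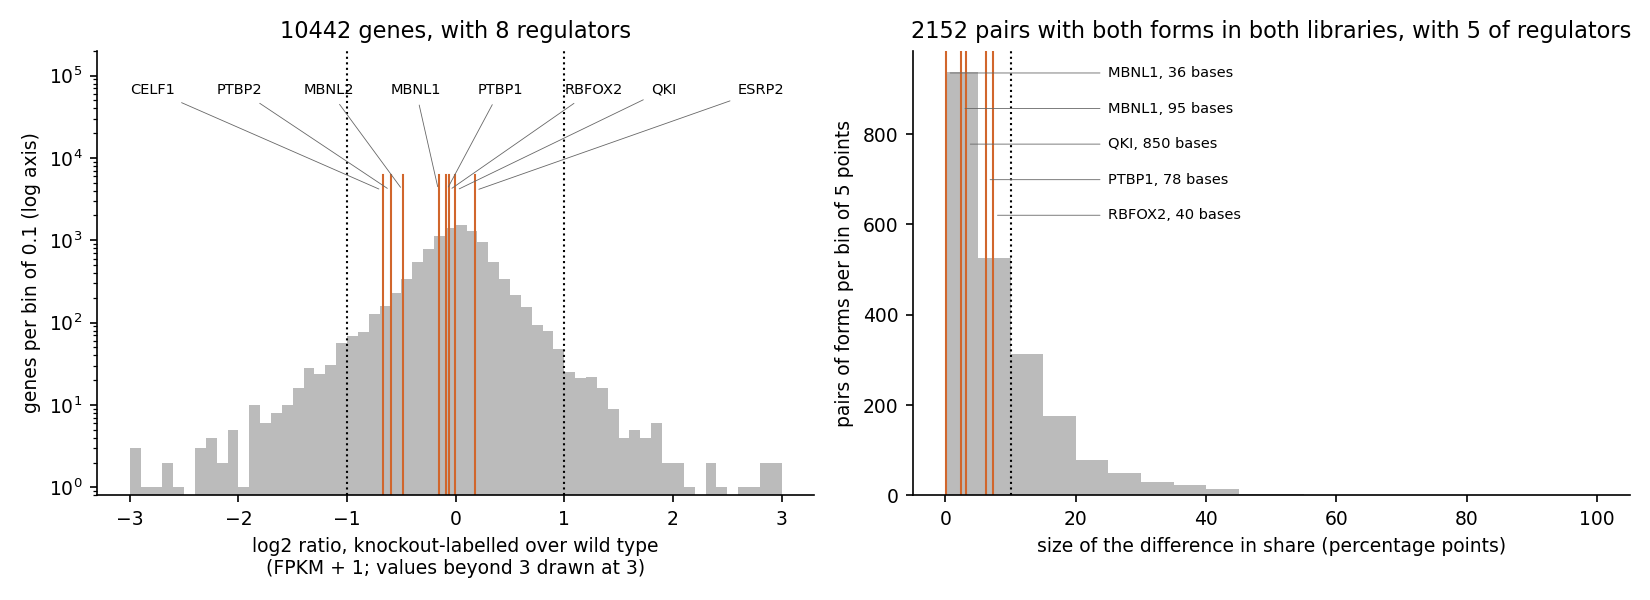
Left, number of genes per log2 ratio bin on a log axis for 10442 genes, with lines for 8 regulators and dotted lines at 2-fold. Right, number of pairs of forms per size of the difference in share for 2152 pairs with both forms in both libraries, with lines for the 5 pairs of the regulators and a dotted line at 10 points; on this scale CELF1 lies farthest out on the left and RBFOX2 on the right.

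Other splicing regulators were read from a list of 42 genes, of which 26 were measured. Of these 11 had a log2 ratio above 0 and 15 below, with a median of -0.06. SRSF3 rose past 2-fold and no gene fell past it, so 1 of 26 was called, beside 3.24% of all genes compared. Of 8 paralogues of the regulators PTBP3 alone reached 1 FPKM, at 37.9 and 39.3 FPKM, a log2 ratio of 0.05. CELF2, CELF4, CELF5 and CELF6 were listed at 0 in both libraries.

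Among 23 other regulators of cell state or tissue splicing 15 were measured, 5 above 0 and 10 below. RBM24, a regulator of muscle splicing, had 5.84 FPKM in wild-type and 3.49 in knockout-labelled cells, a log2 ratio of -0.61. RBM10 had 19.2 and 28.1 FPKM, or a log2 ratio of 0.52. RBM4 stood at 65.9 and 56.7 FPKM, and TIAL1 at 48.5 and 43.9. None of these passed 2-fold. Among 11 partners in splicing control 10 were measured, 5 on each side. SRSF3, an SR protein that binds exonic enhancers, rose from 71.4 FPKM in wild-type to 173 in knockout-labelled cells, a log2 ratio of 1.27. From end events alone its log2 ratio was 0.58, short of 2-fold. MATR3, which binds PTBP1, had 68.8 and 101.5 FPKM, or a log2 ratio of 0.55. SRSF1 stood at 163 and 131 FPKM, and HNRNPF at 167 and 136.

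**Figure D5:**
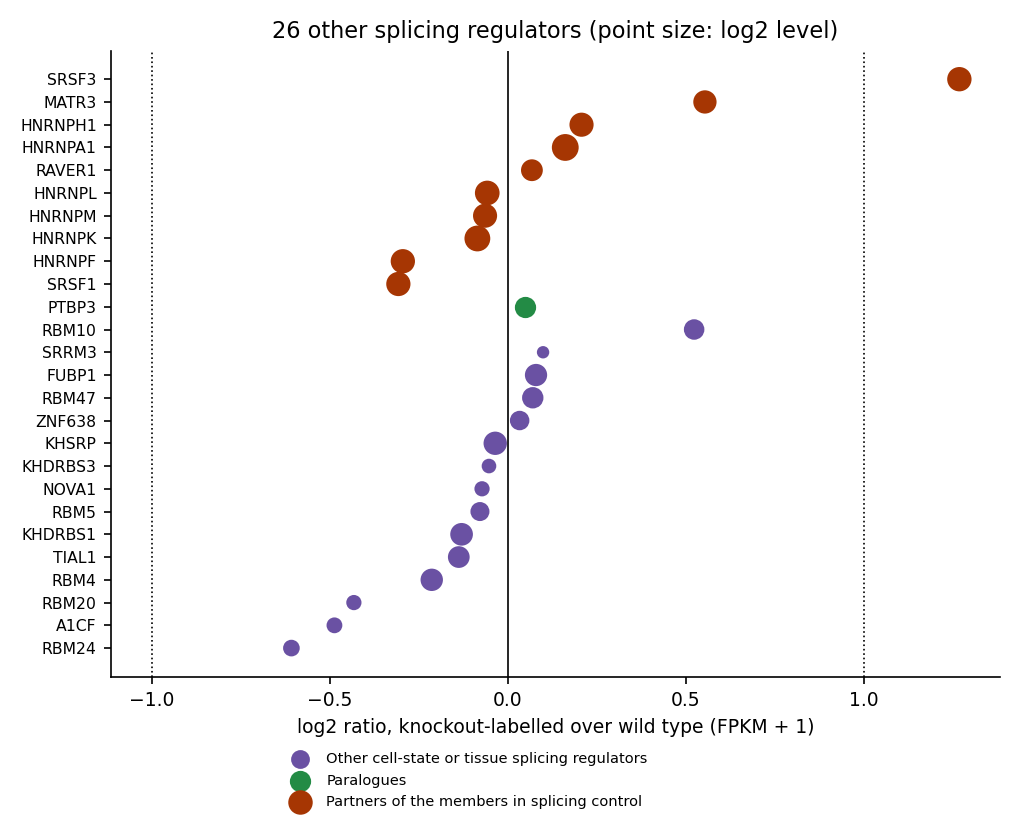
Log2 ratio of FPKM + 1, knockout-labelled over wild type, for the 26 measured genes among 42 other splicing regulators, grouped as paralogues, other regulators and partners. SRSF3 lies at 1.27, past 2-fold, and the others lie within it.

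Documented targets were read from 54 genes with exons known to respond to these regulators, but any skipped exon of those genes was counted, not the documented exon alone. In 42 of them 181 skipped exon pairs were compared, and 22 pairs in 14 genes differed by 10 points or more, 10 of them higher and 12 lower in knockout-labelled cells. That is 12.2%, beside 10.5% of all 12418 skipped exon pairs. By regulator the counts were 9 of 47 pairs for ESRP targets, 6 of 39 for QKI, 4 of 48 for RBFOX2, 4 of 63 for MBNL, 3 of 9 for CELF1 and 2 of 32 for PTBP1. Some genes are in more than 1 list. In 12 of the 22 a form was listed at 0 in a library, as in 65.5% of the 1308 skipped exon pairs past 10 points overall.

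The largest differences were in BIN1, a membrane-curving protein, and LMO7, a LIM-domain protein of cell junctions. An exon can enter several pairs with different neighbouring exons, and each share holds for 1 pair. Joined to the 90-base exon of BIN1, its 129-base exon had a share of 41.5% in wild-type and 100% in knockout-labelled cells, a difference of 58.5 points. Where the 90-base exon was skipped, the 129-base exon had 30.1% and 33.7%, which is within the limit. The 90-base exon had 31.3% and 0% where the 129-base exon was skipped, but 42.9% and 47.8% where it was joined to that exon. In LMO7 the 57-base exon stood at 42.99% and 100%, while the 30-base exon stood at 100% and 48.1%, so exons of 1 gene differed in opposite directions. The 69-base exon of EXOC7, an exocyst subunit with epithelial and mesenchymal forms, had 49.3% and 0% where it was joined to the 93-base exon beside it. Where that exon was skipped, the 69-base exon was listed at 0 in both libraries, with 23.7 and 21.5 FPKM without it. In each of the 5 pairs named with a difference past the limit a form was listed at 0 in 1 library.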

How the data were processed

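The 2 LM3 libraries were grouped by labelled genotype. The deposited tables give 1 FPKM value, per the file headers, for each start, end or splicing event. Build hg38 and Bowtie 0.12.2 are named, with no role, per the submitters' processing notes. No source used here gives the event program, its annotation or its strandedness. Exactly repeated events were dropped, 9201 from the wild-type table and 9181 from the other. Events naming several genes went to the gene with most event positions at GENCODE 29 exon boundaries, and 7733 of 66358 and 7681 of 66055 could not be assigned. Genes at 1 FPKM or more in the larger library and above 0 in both were compared with a pseudocount of 1.

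The members and all lists were chosen with earlier results of these data known. Named were all members, up to 4 genes of each regulator list with the largest ratios at 5 FPKM or more, the 6 target exons with the largest differences, and NCOA5. An item that this rule names is not reported here. RBFOX2 93-base forms, CELF1 ends, ESRP2 starts, other start events and shares of a gene were described after their values were seen. The arithmetic was checked on wild-type values multiplied by known factors. Counting error and events lost from a library were not simulated, so that check does not bear on them. Python 3.11.15, numpy 2.4.6, pandas 2.3.3 and matplotlib 3.10.9 were used. Alternatives were other pseudocounts, scalings, minimums, size rules, event sums and the handling of events naming several genes.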

Additional observations from a re-analysis of the deposited data

How the results depend on the processing

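No member passed 2-fold under any pseudocount, scaling or choice of event sum tried. At 1.5-fold 2 did, CELF1 and PTBP2, beside 1201 of all genes (11.5%), and at 3-fold 77 genes did (0.737%). All genes past 2-fold numbered 640 with a pseudocount of 0.1 and 520 scaled to equal sums, beside 338. Of the other regulators 1 passed 2-fold, 0 from end events alone, 2 at 1.5-fold and 0 at 3-fold. Over the settings with both libraries above 0, the log2 ratio ran from -0.69 to -0.66 for CELF1 and 0.17 to 0.21 for ESRP2. It ran from -0.71 to -0.60 for PTBP2, -0.56 to -0.48 for MBNL2 and 0.58 to 1.29 for SRSF3. QKI turned to 0.02 when scaled to equal sums.

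Of the members' own pairs 0 of 38 differed by 10 points, 4 of 54 with a minimum of 1 FPKM (3 of MBNL2 and 1 of PTBP2) and 1 of 38 as a share of the gene (RBFOX2, -28.7 points). The share past 10 points over all pairs of forms was not computed with the 1 FPKM minimum or as a share of the gene. Whether those member counts differ from such a background therefore cannot be said. Target pairs past the limit numbered 11 of 181 at 20 points, beside 22. All skipped exon pairs past it numbered 2294 of 16647 (13.8%) with a minimum of 1 FPKM, 830 of 9236 (8.99%) with 10 FPKM and 742 of 12418 (5.98%) at 20 points, beside 1308 (10.5%). The cause of these shifts was not tested.

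Without events naming several genes ESRP2 and PTBP1 have no value. From end events alone QKI, MBNL1 and PTBP1 are at 0 in both libraries and ESRP2 is at 0 in wild type. From start events alone CELF1 is at 0 in the knockout-labelled library. No paired analysis was possible because each genotype has 1 library. Unknown depth and single libraries limit every value.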
